A study of Rattus norvegicus with 15 samples.

Results

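The genes described here are 10 genes of the blood vessel lining and of the signals that build vessels. They are the endothelial markers Pecam1, Cdh5, Esam and Vwf, the ligand Vegfa with its receptors Kdr and Flt1, and the ligands Angpt1 and Angpt2 with their receptor Tek. They were taken by gene symbol from a count table of 37991 genes, where each symbol stood on 1 row, and all 10 passed the filter on low counts that left 17201 genes for testing. Total RNA came from the multifidus, a deep paraspinal muscle, of male wild type Sprague Dawley rats aged 12 weeks and weighing 340 to 370 g. The control group had no injury (2 libraries). In the other 4 groups a hemilaminectomy, the removal of part of the vertebral arch on one side, was combined with ligation of the left L5 spinal nerve. The paper's supplement shows that the tied nerve was then cut on the proximal side of the tie. The surgery group (2 libraries) had no treatment after this operation. The pMT group (4 libraries) received human plasma-derived mitochondria (pMT) at 25 μg in 100 μL of buffer per site, 50 μg per rat. The VitD group (3 libraries) received cholecalciferol at 150 μg per site, 300 μg per rat. The pMT/VitD group (4 libraries) received both at these doses. The study's methods place the pMT injection 2 weeks after surgery and tissue collection 2 weeks after that, and the days of the VitD injections are not given in the sources used here. The surgery group had no injection, so an effect of injection itself cannot be told apart from that of what was injected. The pMT came from human plasma and were given to rats. The labels number the libraries and do not state that each came from a separate rat, so p-values measure the spread between these libraries only.

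Endothelial cells line every vessel and hold together through junction proteins, among them VE-cadherin (Cdh5), PECAM-1 (Pecam1) and ESAM (Esam). Vascular endothelial growth factor A (Vegfa), which muscle fibres and other cells release, acts on endothelial cells through the signalling receptor VEGFR2 (Kdr), while VEGFR1 (Flt1) binds it tightly and limits how much reaches VEGFR2. Angiopoietin-1 (Angpt1) activates the receptor TIE2 (Tek) and keeps vessels quiescent, and angiopoietin-2 (Angpt2) competes with it and is known for loosening vessels during remodelling.

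Total counts ranged from 52342134 to 73557878 per library, and the counts of the 10 genes from 256 (Angpt2 in 1 library) to 8225 (Pecam1 in 1 library). Levels of 1 gene across libraries are given as CPM, read counts scaled to library size with TMM factors, and levels of different genes are compared only in the deposited TPM, which are also scaled to transcript length. The TMM factors ran from 0.849 (pMT/VitD replicate 1) to 1.20 (VitD replicate 1). Mitochondrial genes held 10.7% (surgery replicate 1) to 22.6% (pMT replicate 4) of the counts. The deposited TPM carry no TMM factors, which bears on each TPM level set between libraries. Some libraries stood apart from their group. The SD over genes of the log2 difference between 2 libraries was 0.214 to 0.366 among pMT replicates 1 to 3 and 0.403 to 0.597 between these and pMT replicate 4. It was 0.221 to 0.421 among pMT/VitD replicates 1 to 3 and 0.448 to 0.540 between these and pMT/VitD replicate 4, and VitD replicate 1 differed from the other 2 VitD libraries by 0.412 and 0.530, against 0.218 between them. The 2 surgery libraries were the closest pair within any group, at 0.142, and the 2 controls differed by 0.200. The small spread within these pairs bears on each statement below that their libraries did not overlap with others. Libraries also differed in how expression followed gene length, with rank correlations between a gene's deviation and its length from -0.577 (pMT/VitD replicate 1) to 0.645 (pMT replicate 3). Gene length here, also for the percentiles and offsets below, is a gene's mean count divided by its mean TPM, not an annotated length. The rank correlation was -0.499 in pMT replicate 4, near those of pMT/VitD replicates 1 to 3 (-0.577, -0.527 and -0.274), and 0.282 in pMT/VitD replicate 4, within the range of pMT replicates 1 to 3 (0.0407 to 0.645). The deviations of these 2 libraries from their group means were correlated at -0.806 across genes. Whether their labels were exchanged was not tested. Both are used as labelled, which bears on every value of the pMT and pMT/VitD groups, and the calls are therefore given with all libraries and then without both replicates numbered 4. In the multifidus, defining muscle fibre transcripts were abundant in every library, with summed levels of 8 markers from 88865 to 124533 TPM.

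The table of RefSeq promoters held windows for 3 of the 10 genes, Vegfa, Flt1 and Kdr. These are the ligand and the receptors whose CPM levels lay lower in both surgery libraries than in both controls. For Flt1 this did not hold in the deposited TPM, where these groups overlapped. The windows are printed to show the region before the start of each gene. The windows come from the GRCr8 build, whereas the counts were made on rn6, so the coordinates hold for GRCr8 only. Each window ran from 250 bases before the start to 50 after it, and the 250 bases before the start are shown, 5′ to 3′ on the strand of the gene. Capitals mark GCGTG or its reverse complement, a core form of the hypoxia response element.
Vegfa, chr9:22452604-22452853, plus strand: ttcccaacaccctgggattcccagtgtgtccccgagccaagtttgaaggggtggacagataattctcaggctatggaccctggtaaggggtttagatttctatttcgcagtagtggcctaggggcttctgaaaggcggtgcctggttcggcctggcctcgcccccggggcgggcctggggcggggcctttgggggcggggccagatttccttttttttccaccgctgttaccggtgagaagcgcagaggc
Flt1, chr12:12333180-12333429, plus strand: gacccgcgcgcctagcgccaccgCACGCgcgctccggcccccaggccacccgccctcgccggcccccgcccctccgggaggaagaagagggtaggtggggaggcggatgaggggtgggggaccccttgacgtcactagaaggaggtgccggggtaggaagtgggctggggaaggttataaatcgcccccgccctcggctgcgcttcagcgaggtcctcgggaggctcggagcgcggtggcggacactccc
Kdr, chr14:32571813-32572062, plus strand: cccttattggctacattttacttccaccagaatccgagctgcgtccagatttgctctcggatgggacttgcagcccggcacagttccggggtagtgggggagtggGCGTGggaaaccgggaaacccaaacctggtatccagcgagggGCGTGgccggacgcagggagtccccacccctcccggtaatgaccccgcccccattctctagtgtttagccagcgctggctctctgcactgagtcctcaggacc
Both strands were searched over the 300 bases for ACGTG and GCGTG, the 2 core forms of the hypoxia response element, and for GGAA, the core that ETS factors bind. GCGTG was found 2 times in the Kdr window, starting 145 and 103 bases before the start, and 1 time in the Flt1 window, on the reverse strand, starting 227 bases before it. Neither core form was found in this Vegfa window or in a second Vegfa window at chr9:22460028-22460327, and ACGTG was found in none of the 4. Of all 33469 promoters of this length, 19.3% held ACGTG and 29.7% held GCGTG. GGAA was found in all 4 windows, as it was in 95.8% of all promoters. The GC content was 63.3% in the first Vegfa window, 72.7% for Flt1 and 61.0% for Kdr, against a median of 51.7% over all promoters.

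By level per length, Pecam1 was the highest of the 10 genes and Angpt1 the lowest. Averaged over the 15 libraries, Pecam1 stood at 49.8 TPM (range 30.4 to 70.8), Vegfa at 33.0 TPM (23.2 to 48.5), Cdh5 at 26.7 TPM (13.1 to 43.9) and Esam at 21.7 TPM (13.6 to 31.5). Flt1 followed at 13.0 TPM (8.76 to 21.1) and Tek at 11.2 TPM (7.15 to 16.3). Vwf averaged 6.59 TPM (3.59 to 10.5), Kdr 5.76 TPM (3.83 to 9.09), Angpt2 4.08 TPM (2.68 to 5.96) and Angpt1 2.29 TPM (1.34 to 3.45). Ranges of neighbours in this order overlapped throughout. Within a library, the decoy receptor Flt1 was always above the signalling receptor Kdr, at 1.83 to 2.71 times its TPM level. This ratio was 1.96 and 2.27 in the control libraries, 2.65 and 2.61 after surgery, and between 2.10 and 2.32 with pMT. It ran from 1.89 to 2.38 in the pMT/VitD group, and the VitD group (1.83, 2.50 and 2.71) held both extremes. Angpt2 was above Angpt1 in every library, at 1.15 times its TPM level in VitD replicate 3 and 2.63 times in VitD replicate 1, so the extremes of this ratio lay within 1 group.

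**Figure D1:**
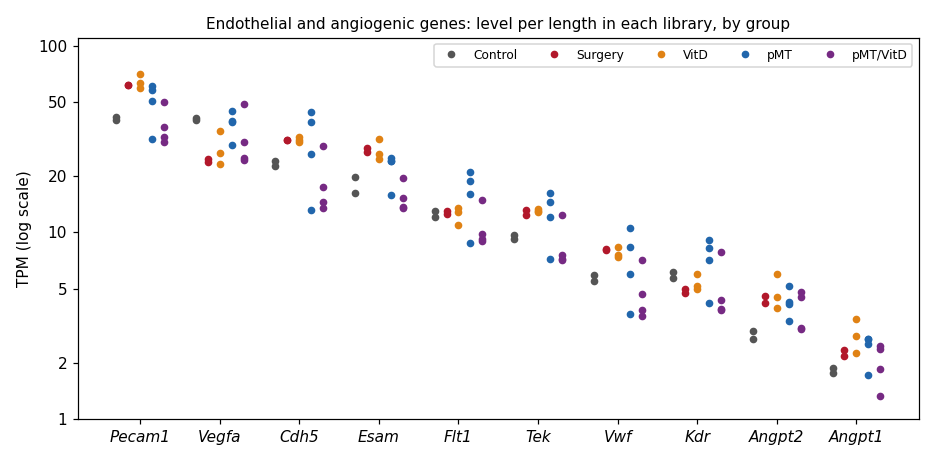
Level per length (TPM, log scale) of the 10 genes, 1 point per library, coloured by group and ordered by the mean over 15 libraries. Pecam1 (mean 49.8 TPM) is highest and Angpt1 (2.29 TPM) lowest, and the libraries of 1 gene spread more widely than the means of neighbouring genes differ.

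Vegfa and Kdr passed the test of any difference across the 5 groups. With edgeR's quasi-likelihood F-test over all 15 libraries and Benjamini-Hochberg adjustment over all genes, 2 of the 10 genes passed an adjusted p of 0.05, Vegfa (0.0293) and Kdr (0.04999), beside 11.8% of all genes tested. Genes that passed this threshold are referred to as called. Esam was next, at an adjusted p of 0.0549. The calls were not firm: leaving out 1 library at a time gave adjusted p-values of 0.00194 to 0.104 for Vegfa and 0.00715 to 0.156 for Kdr. That of Vegfa was lost in 7 of 15 such fits (without either control, either surgery, pMT replicate 1, or VitD replicate 2 or 3). That of Kdr was lost in 12 of 15 (without any library other than pMT replicate 4 and pMT/VitD replicates 3 and 4). With library size alone in place of TMM factors, the same test called neither (adjusted p = 0.136 for Vegfa and 0.321 for Kdr). In bulk muscle, fewer cells of a type and less RNA per cell cannot be told apart, and this holds for each level below.

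Vegfa stood at 109.4 and 109.1 CPM in the control libraries. It was 52.9 and 54.6 CPM in the surgery libraries, and 73.4, 58.4 and 52.0 CPM in the VitD libraries. The 4 pMT libraries had 95.5, 87.9, 92.9 and 97.6 CPM, and the pMT/VitD libraries 80.9, 76.5, 144.8 and 75.8 CPM. In CPM, both groups given pMT lay above both surgery libraries without overlap, and every pMT library lay below both controls. Of all libraries, pMT/VitD replicate 3 alone was above the controls in CPM. In the deposited TPM, pMT/VitD replicate 2 (24.3) lay between the surgery libraries (23.7 and 24.9). There pMT replicate 3 (44.6) lay above both controls (40.2 and 40.8). The surgery level was 0.492 times that of controls, a log2 fold change of -1.02 (SE 0.259) that did not pass the test (adjusted p = 0.0618). Vegfa fell in the VitD group against control, by 0.83 on the log2 scale (SE 0.231, adjusted p = 0.0393). In the pMT group it was higher than after surgery by 0.80 on the log2 scale (SE 0.230), which did not pass the test (adjusted p = 0.100). In the pMT/VitD group it rose against surgery by 0.81 (SE 0.230, adjusted p = 0.0467), and by 0.53 (adjusted p = 0.0360) without pMT/VitD replicate 3, so this library moved the value by more than 1.5 times. The calls depended on single libraries. The VitD call was lost in 8 of 15 fits that left 1 library out (either control, either surgery, pMT replicates 1 and 2, VitD replicates 2 and 3), with adjusted p-values up to 0.207. The pMT/VitD call was lost in 10 of 15 (either control, either surgery, pMT replicates 1 to 3, pMT/VitD replicates 1 and 2, VitD replicate 2), with values up to 0.286. Without pMT/VitD replicate 3, where Vegfa was highest, the surgery difference (adjusted p = 0.00707) and the pMT difference (adjusted p = 0.00990) were called. Without VitD replicate 1 the surgery difference was also called (adjusted p = 0.0297).

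**Figure D2:**
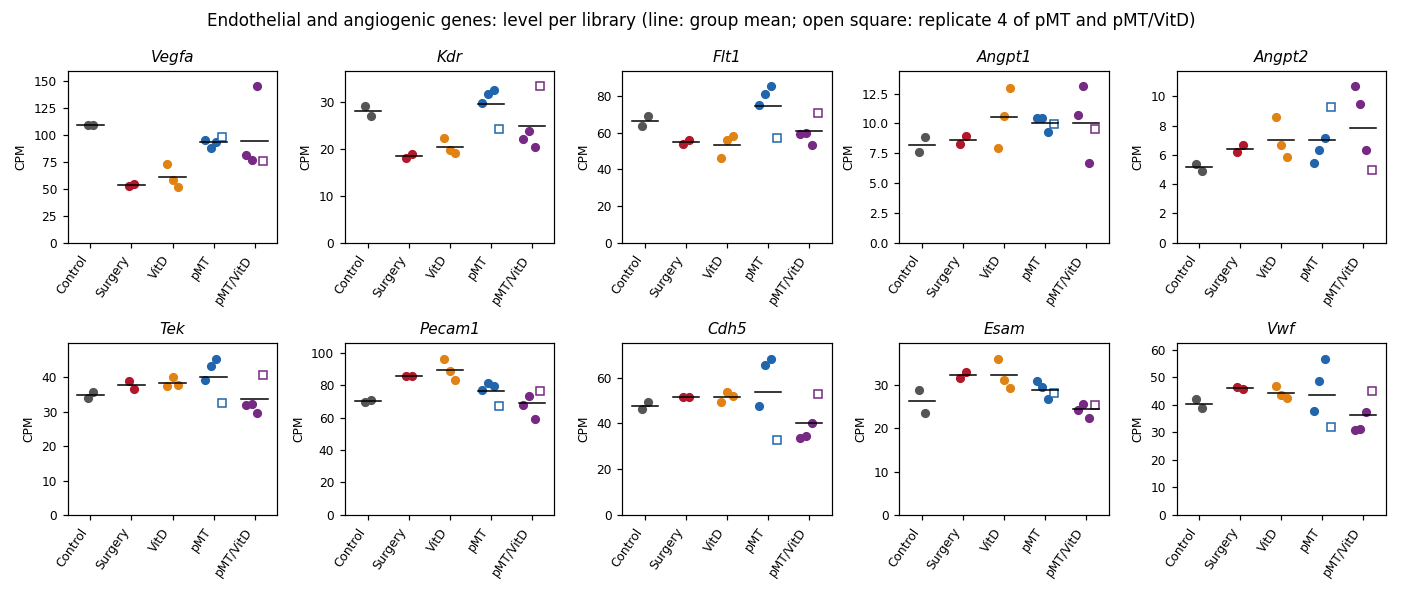
Level (CPM) of the 10 genes in each library by group, with the group mean as a line and the replicates numbered 4 of the pMT and pMT/VitD groups as open squares. Vegfa and Kdr are lowest in the surgery and VitD groups, and for Kdr, Flt1, Tek, Cdh5 and Vwf the pMT square lies below the other pMT libraries while the pMT/VitD square lies above the others of its group.

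In CPM, Kdr, the main signalling receptor for Vegfa, was also lowest on average in the surgery and VitD groups, and highest in the pMT group. It stood at 29.1 and 27.1 CPM in controls, 18.1 and 19.0 CPM after surgery, and 22.4, 19.8 and 19.1 CPM in the VitD group. The pMT libraries had 29.8, 31.7, 32.6 and 24.2 CPM, and the pMT/VitD libraries 22.2, 23.9, 20.4 and 33.3 CPM. All 8 libraries given pMT lay above both surgery libraries. The difference between surgery and control was -0.60 on the log2 scale (SE 0.197, adjusted p = 0.134), and between pMT and surgery 0.67 (SE 0.175, adjusted p = 0.0669). Between pMT/VitD and surgery it was 0.43 (SE 0.174, adjusted p = 0.145). None passed the test with all libraries. The pMT difference was called without pMT replicate 4 (adjusted p = 0.0411), without pMT/VitD replicate 4 (0.0156) and without VitD replicate 1 (0.0476).

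Flt1, which holds back Vegfa, had smaller differences than Kdr between surgery and control and between pMT and surgery. Controls had 63.9 and 69.0 CPM, surgery libraries 53.9 and 55.9 CPM, and VitD libraries 46.0, 55.9 and 58.5 CPM. The pMT libraries had 74.9, 81.2, 85.3 and 57.1 CPM, and the pMT/VitD libraries 59.6, 60.0, 53.5 and 70.6 CPM. In CPM every pMT library lay above both surgery libraries, pMT replicate 4 by the smallest margin, while the pMT/VitD libraries overlapped the surgery group. In the deposited TPM, pMT replicate 4 (8.76) lay below both surgery libraries (12.6 and 13.0). There the surgery libraries overlapped the controls (12.1 and 13.0). With library size alone in the quasi-likelihood test, the difference between surgery and control was -0.0094 on the log2 scale (adjusted p = 0.989). The log2 difference was -0.28 (SE 0.180) for surgery against control and 0.44 (SE 0.159) for pMT against surgery, and neither passed the quasi-likelihood test (adjusted p = 0.468 and 0.199).

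The angiopoietins and Tek showed no called difference in any comparison. Angpt1 had 7.60 and 8.83 CPM in controls, 8.26 and 8.92 CPM after surgery and 10.4, 10.5, 9.30 and 9.98 CPM in the pMT group, and its pMT/VitD libraries ran from 6.69 to 13.1 CPM. Angpt2 had 5.40 and 4.88 CPM in controls and 6.16 and 6.70 CPM after surgery. Its levels ran from 5.43 to 9.28 CPM in the pMT group, where replicate 4 was highest, and from 4.98 to 10.7 CPM in the pMT/VitD group, where replicate 4 was lowest. The largest angiopoietin difference was that of Angpt2 between pMT/VitD and control, 0.61 on the log2 scale (SE 0.280, adjusted p = 0.906). Tek, the receptor of both, ranged from 29.5 to 45.3 CPM over all 15 libraries, with group means from 33.6 to 40.1 CPM. The 95% confidence interval of its difference between pMT and surgery was -0.21 to 0.38 on the log2 scale.

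Among the 4 markers of the vessel lining, Esam fell in the pMT/VitD group. Esam, a tight junction protein, had 28.9 and 23.6 CPM in controls, 31.6 and 32.9 CPM after surgery and 36.0, 31.1 and 29.3 CPM in the VitD group. The pMT libraries had 31.0, 29.5, 26.6 and 28.2 CPM and the pMT/VitD libraries 24.1, 25.7, 22.3 and 25.4 CPM. In CPM every pMT/VitD library was below every pMT library and every surgery library. In the deposited TPM, pMT/VitD replicate 4 (19.6) lay above pMT replicate 4 (15.8). The fall against surgery was 0.40 on the log2 scale (SE 0.113, adjusted p = 0.0445) and was lost in 8 of 15 fits that left 1 library out, with adjusted p-values up to 0.307. These were the fits without either surgery library, without pMT replicate 1 or 2, without pMT/VitD replicate 1, 2 or 3, and without VitD replicate 2. Pecam1 had 69.3 and 71.0 CPM in controls and 85.3 and 85.6 CPM after surgery. It had 96.2, 88.4 and 83.3 CPM in the VitD group, 77.0, 81.2, 79.7 and 67.1 CPM in the pMT group and 67.4, 73.1, 59.1 and 76.5 CPM in the pMT/VitD group. All libraries given pMT thus lay below both surgery libraries. Its log2 difference was 0.28 (SE 0.138) for surgery against control and -0.31 (SE 0.118) for pMT/VitD against surgery, neither of which passed the test (adjusted p = 0.313 and 0.124).

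Cdh5 and Vwf had a wide spread within both groups given pMT. Cdh5, the adhesion protein of endothelial junctions, lay between 46.3 and 53.7 CPM in all 7 libraries without pMT. It had 47.5, 65.4, 68.3 and 33.0 CPM in the pMT group and 33.7, 34.5, 40.1 and 52.9 CPM in the pMT/VitD group. Vwf, the clotting glycoprotein stored in endothelial cells, lay between 38.8 and 46.7 CPM in the libraries without pMT, at 37.8, 48.5, 56.7 and 31.9 CPM in the pMT group and at 30.8, 31.3, 37.4 and 45.1 CPM in the pMT/VitD group. For both genes the pMT replicate 4 was the lowest of its group and the pMT/VitD replicate 4 the highest. No difference passed the test with all libraries.

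By comparison, the counts of called genes were as follows. Surgery against control gave 0 of 10 (1.55% of all genes called), with 3 at an unadjusted p under 0.05, against 17% of all genes. In CPM, as for each count of overlap below, the libraries of these groups did not overlap for 9 of 10. This compares with 66.1% of all genes, with 2 libraries a side. VitD against control gave 1 of 10 (8.67% of all genes), with no overlap for 8 of 10, against 52.1% of all genes. pMT against surgery gave 0 of 10 (1.94% of all genes), with 3 at an unadjusted p under 0.05, against 14.3% of all genes, and no overlap for 6 of 10, against 30.4% of all genes. pMT/VitD against surgery gave 2 of 10 (7.44% of all genes), with no overlap for 5 of 10, against 36.8% of all genes. For both pMT groups against control, first pMT and then pMT/VitD, for VitD against surgery and for the 2 pMT groups against each other, the quasi-likelihood test called 0 of 10 and 0% of all genes, with 0, 1, 0 and 3 of the 10 below 0.05 before adjustment, against 3.07%, 2.88%, 0.808% and 10.1% of all genes. Whether the pMT effect depended on VitD was tested as an interaction, which called 0 of 10 and 0% of all genes, with 0 of the 10 below 0.05 before adjustment, against 5.16% of all genes. The comparisons of VitD, pMT and pMT/VitD with surgery share the surgery libraries, and that of surgery with control uses them too. By the rule in the study's methods for differentially expressed genes (edgeR's exactTest on the surgery and pMT libraries, requiring a 2-fold difference and an unadjusted p below 0.05), 0 of 10 qualified, against 4.04% of 16609 genes. Vegfa and Kdr had adjusted p-values of 7.37e-07 and 0.00216 in that test, with log2 fold changes of 0.79 and 0.66, below the 2-fold limit.

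**Figure D3:**
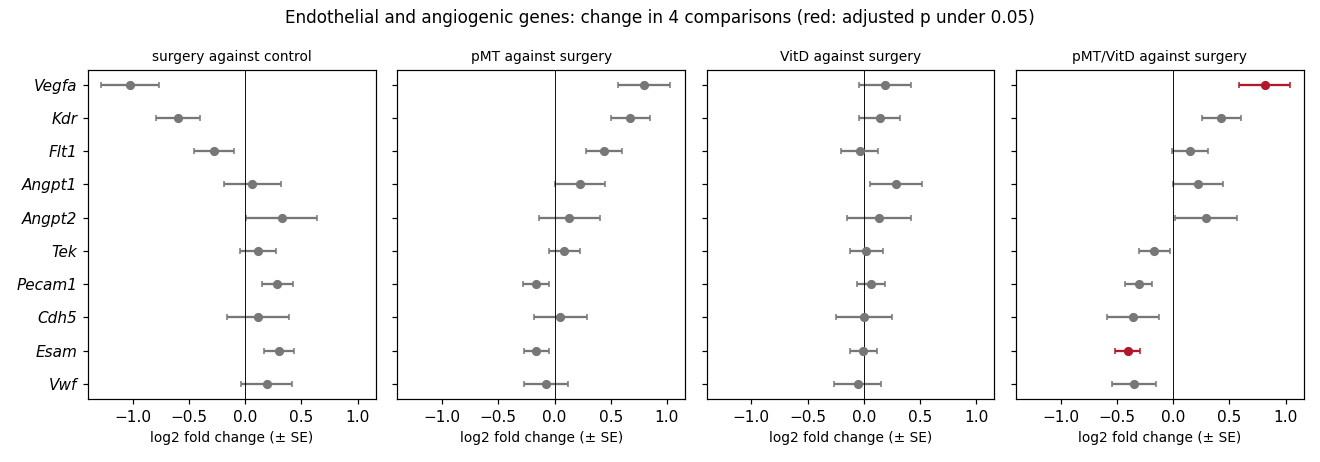
Log2 fold change with its standard error for the 10 genes in 4 comparisons from edgeR's quasi-likelihood fit to all 15 libraries. Called genes are red, namely Vegfa (0.81) and Esam (-0.40) for pMT/VitD against surgery, and the 3 comparisons with surgery share its 2 libraries.

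Without pMT replicate 4 and pMT/VitD replicate 4, more of the 10 genes were called, and more of all genes too. Across the 5 groups 8 of 10 passed, all but Angpt1 and Angpt2, against 29.8% of all genes. Kdr fell after surgery by 0.57 on the log2 scale (adjusted p = 0.0186) and Vegfa by 0.99 (adjusted p = 0.0439), against 4.17% of all genes. In the VitD group against control, Vegfa and Kdr fell and Pecam1 rose (15.1% of all genes). Against surgery, the pMT group had higher Kdr, by 0.75 on the log2 scale (SE 0.105, adjusted p = 0.00285), and higher Flt1, by 0.54 (SE 0.112, adjusted p = 0.0250), with 3.15% of all genes called. Against surgery, the pMT/VitD group had higher Vegfa and lower Pecam1, Vwf, Cdh5, Esam and Tek, 6 of 10 against 20.1% of all genes. Cdh5 fell most, by 0.53 on the log2 scale (SE 0.134, adjusted p = 0.0165). The pMT/VitD group differed from the pMT group in 5 of 10, all lower (Vwf, Cdh5, Kdr, Flt1 and Tek), against 18.3% of all genes. Cdh5 fell by 0.74 (SE 0.122, adjusted p = 0.00321). The pMT effect was smaller with VitD than without it for Kdr (-0.64 on the log2 scale, SE 0.138, adjusted p = 0.0410), with 1.89% of all genes called. Comparisons of pMT and pMT/VitD with control and of VitD with surgery called 0 of 10, against 0.0233%, 0.064% and 0% of all genes. These 2 libraries were set aside because they stood apart from their groups, which by construction narrows the spread within them.

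Within the pMT and pMT/VitD groups, the replicates numbered 4 stood apart in the endothelial genes as they did in the length trend. The mean log2 deviation of Pecam1, Cdh5, Kdr, Tek and Esam from their average over libraries was 0.105, 0.244 and 0.244 in pMT replicates 1 to 3 and -0.182 in pMT replicate 4. It was -0.247, -0.176 and -0.307 in pMT/VitD replicates 1 to 3 and 0.119 in pMT/VitD replicate 4, and lay between -0.0417 and 0.128 in the other libraries. Esam, 1 of these 5 genes, did not follow this. It had 28.2 CPM in pMT replicate 4, within replicates 1 to 3 (26.6 to 31.0 CPM). In pMT/VitD replicate 4 it had 25.4 CPM, also within replicates 1 to 3 (22.3 to 25.7 CPM). Over the 15 libraries, pairs of the 5 genes were correlated from -0.24 (Kdr and Esam) to 0.90 (Cdh5 and Tek). In the pMT and pMT/VitD groups the libraries with a positive length correlation were those with the higher endothelial mean. The relation did not hold in the control and VitD groups or among pMT/VitD replicates 1 to 3. VitD replicate 1 had the lowest length correlation of its group (-0.0781) and the highest endothelial mean (0.128), and VitD replicate 3 the reverse (0.419 and -0.00182). Among pMT/VitD replicates 1 to 3 the lowest mean (-0.307) went with the highest correlation (-0.274). By length, Vwf lies at the 97.1 percentile of the genes, Flt1 at 92.1, Kdr at 88.7 and Angpt1 at 88.3. Tek lies at 79.5, Vegfa at 65.3, Cdh5 at 49.4, Angpt2 at 44.0, Pecam1 at 40.8 and Esam at 31.6. With the length trend removed from each library through offsets, 4 genes were called across the groups (Vegfa, Kdr, Flt1 and Esam), against 16.1% of all genes in the same fit. Against surgery, Kdr then rose in the pMT group by 0.65 on the log2 scale (adjusted p = 0.0217) and in the pMT/VitD group by 0.56 (adjusted p = 0.0201), and Flt1 rose in the pMT group by 0.40 (adjusted p = 0.0481). These fits called 2.84% of all genes for pMT and 10.5% for pMT/VitD against surgery.

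**Figure D4:**
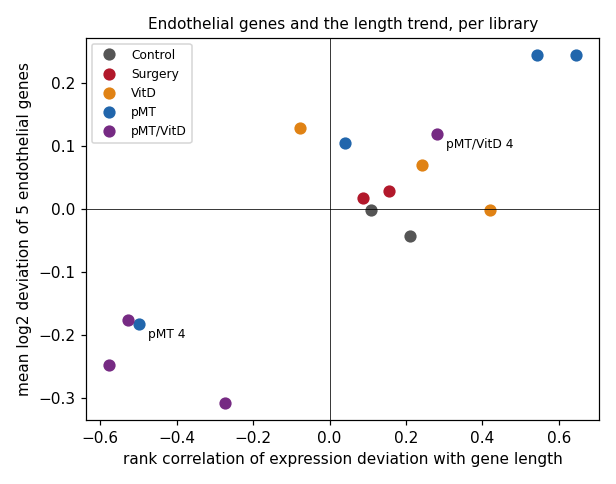
Each point is 1 library, with the rank correlation of expression deviation with gene length on the horizontal axis and the mean log2 deviation of Pecam1, Cdh5, Kdr, Tek and Esam on the vertical axis. pMT replicate 4 (-0.499, -0.182) lies among the pMT/VitD libraries, and pMT/VitD replicate 4 (0.282, 0.119) lies near the pMT libraries.

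Other genes of the vessel wall were counted from lists. Of 30 further endothelial identity genes, 2 rose and 0 fell after surgery (median log2 difference 0.31, against -0.01 for all genes). In the pMT group against surgery 3 rose and 1 fell (median -0.03, against 0.02 for all genes), and in the pMT/VitD group 1 rose and 4 fell (median -0.25, against 0.00 for all genes). VitD against control gave 6 higher and 0 lower (median 0.39). Its 3 most abundant genes, Cav1, Ramp2 and Tspan7, were called in none of these. Without both replicates numbered 4, 4 rose and 1 fell after surgery, beside 4.17% of all genes called. In the VitD group against control 11 then rose, Ramp2 among them, beside 15.1% of all genes. Against surgery, the same 4 genes were then called in the pMT group (Cldn5, S1pr1 and Sox17 higher, Plvap lower), beside 3.15%. In the pMT/VitD group against surgery 1 rose and 7 fell, beside 20.1%. For pMT/VitD against pMT, where 0 were called with all libraries, 6 then fell (Cd34, Mmrn2, Ptprb, Robo4, S1pr1 and Tie1), beside 18.3%. These shares of all genes hold for each list below without both replicates numbered 4. Plvap, which forms the diaphragms of fenestrated and activated endothelium, had 15.2 and 13.1 CPM in controls and 30.9 and 29.3 CPM after surgery. The pMT libraries had 16.5 to 17.6 CPM and the pMT/VitD libraries 15.8 to 17.7 CPM. In CPM these lay above both controls and below both surgery libraries, replicates 4 included. In the deposited TPM they also lay below both surgery libraries. There pMT replicate 4 (8.84) and pMT/VitD replicates 1 to 3 (8.49, 9.32 and 8.99) lay below control replicate 1 (9.69). Plvap rose after surgery by 1.09 on the log2 scale (SE 0.158, adjusted p = 0.00653) and fell against surgery by 0.83 in the pMT group (adjusted p = 0.00613) and by 0.86 in the pMT/VitD group (adjusted p = 0.00262). Without surgery replicate 1 its 3 differences were not called (0.0854, 0.133 and 0.0502), and without surgery replicate 2 the pMT difference was not (0.0679). The surgery difference was also lost without control replicate 1 (0.0838) or 2 (0.143).

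The 3 endothelial identity genes that rose in the pMT group, named after their values were seen, were S1pr1, Cldn5 and Sox17. S1pr1, a receptor that stabilises vessel junctions, had 32.2 and 32.7 CPM after surgery and 44.3 to 56.8 CPM in the pMT group, a rise of 0.61 on the log2 scale (adjusted p = 0.0246). Cldn5, a tight junction protein, had 32.4 and 32.5 CPM after surgery and 42.0 to 52.5 CPM in the pMT group, a rise of 0.51 (adjusted p = 0.0473). Sox17, an arterial transcription factor, had 13.2 and 13.1 CPM after surgery and 18.2 to 19.8 CPM in the pMT group, a rise of 0.53 (adjusted p = 0.0325). Each pMT library lay above both surgery libraries for all 3 genes in CPM. In the deposited TPM, pMT replicate 4 lay below both for S1pr1 (13.7 against 14.9 and 15.3). The same held for Cldn5 (29.9 against 35.0 and 35.2), and for Sox17 it lay between them (5.81 against 6.30 and 4.74). These calls were lost in 4 (S1pr1), 12 (Cldn5) and 8 (Sox17) of 15 fits that left 1 library out. The fits without either surgery library or without pMT replicate 1 or 2 lost all 3 calls, with adjusted p-values of 0.287, 0.258, 0.0638 and 0.0656 for S1pr1, 0.397, 0.380, 0.123 and 0.126 for Cldn5, and 0.303, 0.325, 0.0887 and 0.0896 for Sox17.

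Of 14 further genes of the VEGF and angiopoietin pathway, with all 15 libraries 1 was called in each of 4 comparisons, and it was the same gene, Shc2, an adaptor of receptor tyrosine kinases. Shc2 was low, at 1.34 and 0.98 CPM in controls, 2.57 and 2.74 CPM after surgery, 1.33 to 1.64 CPM in the pMT group and 0.87 to 1.36 CPM in the pMT/VitD group. It rose after surgery by 1.19 on the log2 scale (adjusted p = 0.0324) and fell against surgery by 0.86 in the pMT group (adjusted p = 0.0447) and by 1.21 in the pMT/VitD group (adjusted p = 0.00426). These calls were lost in 6, 10 and 2 of 15 fits that left 1 library out, those without either surgery library among them, with adjusted p-values up to 0.295, 0.380 and 0.0699. Vegfb, Epas1 and Angptl4, the most abundant of this list, were not called in any pairwise comparison with all libraries. Without both replicates numbered 4, Shc2 alone was called for surgery against control and for pMT against surgery, while 6 genes were called for pMT/VitD against surgery (Angptl4 higher, Angpt4, Hif1a, Nrp2, Pgf and Shc2 lower). Another 6 were called for pMT/VitD against pMT (Vegfb higher, Epas1, Flt4, Hif1a, Nrp1 and Nrp2 lower). The pMT effect was then lower with VitD than without it for Hif1a and for Nrp1, a co-receptor of Kdr. Epas1, which encodes the hypoxia factor HIF-2α, ran from 28.4 to 107 CPM in the pMT group, where replicate 4 was lowest.

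Among 20 sprouting and Notch genes, with all 15 libraries 3 rose after surgery (Apln, Thbs2 and Heyl), 2 of these fell in the pMT group against surgery (Apln and Thbs2) and all 3 in the pMT/VitD group, and 0 were called in the opposite direction. Without both replicates numbered 4 the same 3 rose after surgery. Against surgery, Apln and Thbs2 then fell and Adm rose in the pMT group, and 9 genes fell and 1, Esm1, rose in the pMT/VitD group. Those that fell included Col4a1 and Col4a2, chains of basement membrane collagen, and Pdgfb, which recruits pericytes. Between pMT/VitD and pMT 10 then fell and 0 rose, beside 18.3% of all genes called, against 0 called with all libraries. Apln, the peptide apelin made by sprouting endothelial tips, had 3.75 and 4.18 CPM in controls and 8.09 and 8.48 CPM after surgery. It had 3.37 to 4.79 CPM in the pMT group and 3.26 to 3.91 CPM in the pMT/VitD group. It rose after surgery by 1.06 on the log2 scale (adjusted p = 0.0394) and fell against surgery by 0.91 (adjusted p = 0.0287) and by 1.17 (adjusted p = 0.00387). The rise was lost in 8 of 15 fits that left 1 library out (either control, either surgery, pMT replicate 1 or 2, pMT/VitD replicate 1, VitD replicate 2), with values up to 0.266. The falls were lost in 4 fits (either surgery library, pMT replicate 1 or 2) and in 1 (surgery replicate 2, 0.0571). Plvap, Apln and Shc2 thus lay opposite to Vegfa and Kdr in the surgery and pMT groups.

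**Figure D5:**
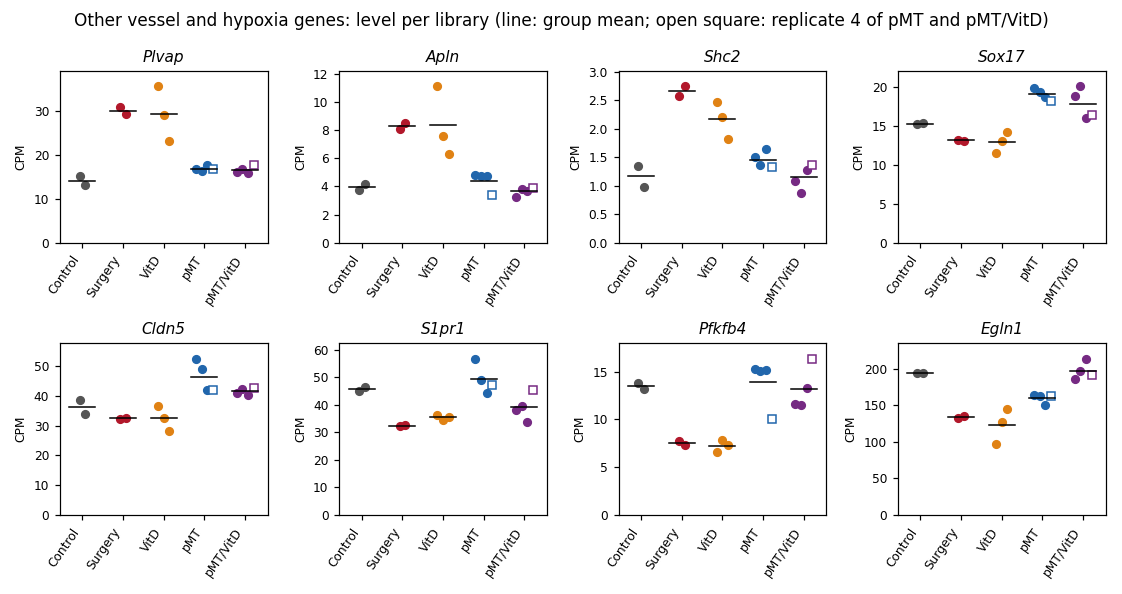
Level (CPM) of 8 other vessel and hypoxia genes in each library by group, with the group mean as a line and the replicates numbered 4 of the pMT and pMT/VitD groups as open squares. Plvap, Apln and Shc2 are high in the surgery and VitD groups, S1pr1, Sox17, Cldn5 and Pfkfb4 are low there, and the open squares of Plvap lie with their groups.

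Of 15 hypoxia response genes, 0 were called after surgery (median -0.11), 1 rose in the pMT group (median 0.17) and 2 in the pMT/VitD group (median 0.19), both against surgery, and 3 fell in the VitD group against control. Pfkfb4, a regulator of glycolysis, had 13.8 and 13.1 CPM in controls and 7.77 and 7.32 CPM after surgery. It had 15.2, 15.1, 15.2 and 10.1 CPM in pMT replicates 1 to 4, a rise of 0.88 on the log2 scale against surgery (adjusted p = 0.0250), lost without surgery replicate 1 (0.263) or 2 (0.299) and without pMT replicate 1 (0.0686), 2 (0.0729) or 3 (0.0517). In the deposited TPM, Pfkfb4 in pMT replicate 4 (3.19) lay below both surgery libraries (3.69 and 3.63). In the pMT/VitD group Pfkfb4 rose by 0.81 (adjusted p = 0.0182), lost without surgery replicate 1 (0.155) or 2 (0.206). Egln1, the oxygen-sensing prolyl hydroxylase, had 132.1 and 135.6 CPM after surgery and 186 to 214 CPM in the pMT/VitD group, a rise of 0.56 (adjusted p = 0.0307) that was lost in 5 of 15 fits (either surgery library and pMT/VitD replicates 1 to 3). In the deposited TPM, Egln1 in the pMT/VitD libraries (48.1 to 67.2) overlapped the surgery libraries (51.4 and 52.8). Ldha, the most abundant of this list, had log2 differences of -0.43 after surgery and 0.24 for pMT against surgery, neither called. Without both replicates numbered 4, Pfkfb4 fell after surgery and rose in the pMT group, and Egln1, Ldha and Pfkfb4 rose and Slc2a1 fell in the pMT/VitD group against surgery.

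Markers of other cell types moved between the same groups, and their part in the vessel gene differences was not tested. Summed levels below are in the deposited TPM, which carry no TMM factors. Of 10 macrophage markers, 3 rose after surgery (median 0.85), 6 fell in the pMT group against surgery (median -0.89) and 10 fell in the pMT/VitD group (median -1.08). Their summed level was 264 and 285 TPM in controls, 676 and 684 TPM after surgery, 198 to 380 TPM in the pMT group, 189 to 334 TPM in the pMT/VitD group and 551 to 969 TPM in the VitD group. Adgre1, a macrophage surface receptor, rose after surgery by 1.22 on the log2 scale and fell against surgery by 1.55 in the pMT/VitD group. Of 7 fibroblast markers, 1 rose after surgery, and 3 and 5 fell against surgery in the pMT and pMT/VitD groups, with summed levels of 1016 and 1070 TPM in controls, 1887 and 1923 TPM after surgery, 830 to 1450 TPM in the pMT group and 680 to 1198 TPM in the pMT/VitD group. Col1a1, a chain of type I collagen, fell against surgery by 1.22 on the log2 scale in the pMT group and by 1.46 in the pMT/VitD group. With all libraries, 0 of 10 pericyte and smooth muscle markers were called in the pairwise comparisons, with summed levels of 219 and 231 TPM in controls, 311 and 317 TPM after surgery, 160 to 375 TPM in the pMT group and 163 to 259 TPM in the pMT/VitD group. Of 7 lymphatic endothelial markers, 1 rose after surgery and fell in the pMT group (Lyve1, which some macrophages also express), and 2 fell in the pMT/VitD group (Lyve1 and Pdpn). Lymphatic markers summed to 33.5 and 34.5 TPM in controls, 55.2 and 58.7 TPM after surgery, 28.7 to 33.8 TPM in the pMT group and 21.1 to 40.4 TPM in the pMT/VitD group. Of the 6 platelet markers, which share Vwf biology, 3 could be tested, and Pf4 alone was called, higher after surgery and lower in both groups given pMT. Pf4 averaged 38.2 TPM over the libraries, and Itga2b, the next highest of this list, 0.338 TPM. The Pf4 difference therefore does not stand for the list, and its cell source was not tested. Of 4 red cell markers, which track blood left in the tissue, 0 were called after surgery or in the pMT group and 1, Alas2, rose in the pMT/VitD group against surgery. Red cell markers summed to 890 and 926 TPM in controls, 741 and 748 TPM after surgery, 1014 to 1368 TPM in the pMT group and 650 to 1652 TPM in the pMT/VitD group. With all libraries, 0 of 8 muscle fibre markers were called in the pairwise comparisons.

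Without both replicates numbered 4, more of these markers were called too. Of the pericyte and smooth muscle markers, 5 fell in the pMT/VitD group against the pMT group (Abcc9, Myh11, Notch3, Pdgfrb and Rgs5), Pdgfrb fell in the pMT/VitD group against surgery, and Cspg4 and Pdgfrb rose in the VitD group against control. Of the 10 macrophage markers, 8 rose after surgery, and 8 fell in the pMT group and 10 in the pMT/VitD group against surgery. Of the 7 fibroblast markers, 4 rose after surgery, and 3 and 6 fell against surgery. Lyve1 rose after surgery, and Lyve1 and Pdpn fell against surgery in both groups given pMT. Pf4 was again the single platelet marker called. All 4 red cell markers rose in the pMT/VitD group against surgery. Of the muscle fibre markers, Tnnt3 rose in the pMT/VitD group against surgery, and Tnnt3 and Acta1 rose there against the pMT group.

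The genes whose pattern over the 15 libraries was most like the endothelial mean, among 11389 compared, were Arhgap35 (Pearson r 0.95), Luzp1 (0.95), Pdzd8 (0.94), Nrp1 (0.93) and Limd1 (0.93). Those most like Vegfa were Dgkz (0.93), RGD1306739 (0.92), Srsf5 (0.91), Wdr6 (0.89) and Ksr1 (0.89). Within the 10 genes, Vwf and Cdh5 were closest (r 0.95), followed by Cdh5 and Tek (0.90), Pecam1 and Esam (0.83) and Kdr and Flt1 (0.83). Vegfa was correlated with Kdr at 0.52 and with Pecam1 at -0.77. These values are descriptions over libraries that share depth, length trend and group differences.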

How the data were processed

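Per the labels and the study's methods, reads were trimmed with Trimmomatic 0.38, aligned to rn6 with HISAT2 2.1.0 and quantified with StringTie 2.1.3b against NCBI RefSeq. The authors deposited counts per gene, not normalized, with TPM and FPKM beside them (the FPKM columns were not used here). Whether counting used strand is not given in the sources used here.

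Counts were tested in edgeR 4.0.16 (R 4.3.3): TMM scaling, filterByExpr, a quasi-likelihood fit to all 15 libraries, and Benjamini-Hochberg adjustment over 17201 genes, with calls at 0.05. TPM as deposited by the authors served for levels of different genes. Libraries held 52342134 to 73557878 counts. The code was tested on simulated data.

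The 10 genes and the lists were chosen with earlier results of these data known. The naming rule took all 10 genes, up to the 3 most abundant genes of each list, up to 5 called list genes with the largest change per comparison, and the 5 genes most like the endothelial mean and Vegfa. Names outside it (Shc2, S1pr1, Cldn5, Sox17, Pfkfb4, Egln1, Thbs2, Heyl, Alas2, and those named without both replicates numbered 4) were chosen after their values were seen. Alternatives were DESeq2 1.42.0 (also its size factors), limma 3.58.1 voom with quality weights, library size alone, other filters, the compared groups alone, a replicate block, length offsets and leaving libraries out.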

Additional observations from a re-analysis of the deposited data

Results flagged for a closer look

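Vegfa in pMT/VitD replicate 3 stood at 144.8 CPM, far from the other 3 libraries of its group (75.8 to 80.9 CPM), with a gap of 0.926 of the group's range. In all, 20 groups of 4 libraries were examined in this way and 1 was flagged, and chance flags about 1 in 20.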

How the results depend on the processing

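The counts of the 10 genes called were recomputed under each alternative, and all fold changes that were called with all libraries kept their direction. With DESeq2 they were 5 across the groups (21.6% of all genes), 1 for surgery (5.94%) and 2 for VitD against control (14.4%), and 2 for pMT against surgery (4.34%). With voom and quality weights they were 9 across the groups, 5, 6 and 1 for surgery, VitD and pMT/VitD against control, 4 and 8 for pMT and pMT/VitD against surgery, 8 for pMT/VitD against pMT and 6 for the pMT effect with against without VitD, in fits that called 66.7%, 28.7%, 37.5%, 10.8%, 37.7%, 39.5%, 38.5% and 31.5% of all genes in that order. With RLE scaling 1 was called across the groups (11.9%) and 1 for pMT/VitD against surgery (7.45%), and with any gene with a count kept, 1 (7.28%) and 0 (3.86%). With library size only, the quasi-likelihood test called 2 across the groups (20.8%), Pecam1 (adjusted p = 0.0171) and Esam (0.00583). It called neither Vegfa (0.136) nor Kdr (0.321) there. For VitD against control it called Pecam1 and Esam (16.2%) but not Vegfa (0.137). For pMT/VitD against surgery it called Pecam1 and Esam (18.9%) but not Vegfa (0.160). In these fits the median log2 fold change over all genes was 0.25 for surgery and 0.27 for VitD against control. It was -0.12 for pMT and -0.32 for pMT/VitD against surgery. Fitting only the groups compared gave 7 for surgery and 0 for VitD against control, and 2 for pMT and 0 for pMT/VitD against surgery (32.4%, 0.579%, 3.13% and 5.12% of all genes). With the length trend removed, 4 were called across the groups (16.1%), 1 for surgery (3.15%) and 2 for VitD against control (13.8%), and 2 for pMT (2.84%) and 3 for pMT/VitD against surgery (10.5%). Without both replicates numbered 4 there were 8 across the groups, 2 and 3 for surgery and VitD against control, 2 and 6 for pMT and pMT/VitD against surgery, 5 for pMT/VitD against pMT, and 1 for the pMT effect with against without VitD. The cause of these changes was not tested.

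Leaving out 1 library at a time gave 0 to 4 across the groups, 0 to 1 for surgery against control, 0 to 2 for VitD against control, 0 to 1 for pMT against surgery, 0 to 2 for pMT/VitD against surgery, and 0 to 0 for the other comparisons and for the 2-fold rule. The share of all genes called in each of these fits is not given here. A change in these counts can therefore not be told apart from a change over all genes. Of 2250 recomputed fold changes, 69 changed sign, none of them called in either fit.

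Replicate numbers did not pair the libraries: correlations of deviations between same-numbered libraries ran from -0.806 to 0.331. With the replicate block, 0 of 10 were called across the groups and 0 for pMT/VitD against surgery (1080 and 350 of all genes, against 2035 and 1279), and Vegfa was called for VitD against control (adjusted p = 0.0484). With 2 libraries in the control and surgery groups, each of their libraries weighs heavily in every contrast that uses them.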
